A study of Mus musculus with 8 samples.

Results

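Immunoglobulin genes and Jchain, the transcripts that plasma cells make in greatest amount, were followed through 8 droplet single-cell RNA libraries of mouse colonic lamina propria, the connective tissue under the gut epithelium. Members were taken by symbol: every gene whose name began with Ighm, Ighd, Ighg, Igha, Ighe, Ighv, Igkv, Igkc, Iglv or Iglc, plus Jchain. The rule gave 380 of the 31053 listed genes. They were 185 heavy variable genes, 160 kappa variable genes, 3 lambda variable genes, 17 heavy diversity segments, 8 heavy constant genes, 5 light constant genes, Jchain, and Ighmbp2. Ighmbp2 (chromosome 19, 3259076 to 3283017) encodes a DNA- and RNA-binding helicase and no antibody chain, and it was kept out of all immunoglobulin sums. Of the 380 members, 240 had at least 1 unique molecular identifier (UMI, a count of 1 captured transcript) in plasma cells, 166 in B cells and 201 in the other barcodes. In none of these 3 populations was a UMI seen for 130 members, namely 63 heavy variable genes, 50 kappa variable genes and all 17 diversity segments. A filter on low counts passed 167 members in plasma cells, 11 in B cells and 86 in the other barcodes, and only these were tested.

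An antibody is built of 2 kinds of chain, heavy and light, and each chain joins a variable region, which binds antigen, to a constant region. A developing B cell cuts and joins its DNA so that its heavy chain uses 1 of many Ighv genes and its light chain 1 of many Igkv or Iglv genes, and the descendants of that cell inherit the choice. The heavy constant gene sets the class: Ighm and Ighd are used by B cells that have not switched class, the Ighg genes give IgG, Ighe gives IgE and Igha gives IgA. In the gut wall most plasma cells make IgA as dimers held together by the joining chain, the product of Jchain, and the dimers are carried across the epithelium into the lumen.

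All mice were C57BL/6, 10 to 12 weeks old and kept free of specific pathogens, and 4 groups held 2 libraries each. Wildtype (WT) mice and mice with the RORgtS182A mutation (S203AKI in the sample titles, a residue number that differs from the S182A of the labels) were either left on plain water for 10 days or given 2% dextran sulfate sodium (DSS), an agent that injures the colonic epithelium, for 7 days and plain water for 3 days, and all were taken on day 10. RORgt is a transcription factor of Th17 cells and innate lymphoid cells. The study compared DSS with no treatment in WT mice, and mutant with WT mice without and with DSS. Cells went through an isolation kit for CD4+ T cells before loading, so that plasma cells and B cells were carried along and their shares are not those of the tissue. The design text states 2 independent biological replicates in each condition. Below, values in library order are those of untreated WT 1 and 2, untreated S203AKI 1 and 2, DSS WT 1 and 2, and DSS S203AKI 1 and 2. The plots write these names as WT_untreated 1 and so on.

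The libraries held 34497509 to 46960005 UMIs in 10563 to 16133 barcodes, and 100673 barcodes in all. Barcodes were clustered here without immunoglobulin genes or Jchain, so that the members' own values took no part in the sorting. A plasma cell-like cluster of 3569 barcodes, called plasma cells below, was led by Mzb1, Ccr10 and Tnfrsf17, and a B cell-like cluster of 4473 barcodes, called B cells, by Ms4a1, Bank1 and Ebf1. Leaving immunoglobulin UMIs out of the total, Mzb1 lay at 4345 CPM (counts scaled to a total of 1000000 UMIs) in plasma cells against 281 in B cells, while Ms4a1, a defining B cell gene, lay at 8.76 against 372 and Pax5 at 0.876 against 131. The remaining 92244 barcodes, mostly T cell-, macrophage- and fibroblast-like or unnamed, are called other barcodes. Clusters of 8325, 6266 and 3895 barcodes, led by Il17f, Gzmk and Il1rl1, scored highest on the T cell list but stayed unnamed. The T cell values below leave them out. A cluster of 387 barcodes that mixed markers of B cells and plasma cells was left out of all 3 populations. Between 14.5% and 21.9% of the plasma cell barcodes of a library also held a T cell receptor UMI, and no doublet caller was run. Here and below this means a UMI of Trac, Trbc1, Trbc2 or the CD3 genes Cd3d, Cd3e and Cd3g. Of 99487 different barcode sequences, 1176 occurred in more than 1 library, and 1 of the 3568 different plasma cell barcodes did.

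On the mm10 genome, the heavy variable genes lie on chromosome 12 between 113572927 and 116010093, and the heavy constant genes lie beside them between 113254830 and 113422730. The kappa variable genes lie on chromosome 6 between 67555497 and 70704177, next to Igkc at 70726435 to 70726966. The lambda variable genes (19085017 to 19260859) and lambda constant genes (19061618 to 19200351) are interspersed on chromosome 16, and Jchain lies alone on chromosome 5 at 88519809 to 88527891. The sequences below are germline coding bases from the GENCODE M21 annotation on mm10, 5′ to 3′ on the coding strand, and not the rearranged, mutated copies in the cells. They are shown because a variable gene UMI is told apart from its relatives only by such letters. First come the last 150 coding bases of the leading kappa variable gene and of 4 variable genes whose differences are described most fully below, and of Iglv1. Capitals mark the last match to TANTANTGN, which covers the codons for tyrosine, tyrosine and cysteine near the end of many variable regions. It was searched on the coding strand of these last 150 bases only and was found in 76.2% of the 218 variable members with a coding sequence, in 75.7% of heavy, 79% of kappa and 0 of 3 lambda genes, and an all lower case sequence holds no match.
Igkv12-44: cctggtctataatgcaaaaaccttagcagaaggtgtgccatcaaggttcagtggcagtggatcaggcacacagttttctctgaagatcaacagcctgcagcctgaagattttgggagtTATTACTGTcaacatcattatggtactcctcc
Igkv3-2: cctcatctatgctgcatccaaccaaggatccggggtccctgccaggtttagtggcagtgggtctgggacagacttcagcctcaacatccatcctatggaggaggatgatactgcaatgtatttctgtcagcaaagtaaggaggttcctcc
Ighv2-5: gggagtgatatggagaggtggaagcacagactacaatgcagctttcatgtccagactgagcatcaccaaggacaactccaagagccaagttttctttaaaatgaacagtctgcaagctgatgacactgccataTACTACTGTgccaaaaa
Ighv5-16: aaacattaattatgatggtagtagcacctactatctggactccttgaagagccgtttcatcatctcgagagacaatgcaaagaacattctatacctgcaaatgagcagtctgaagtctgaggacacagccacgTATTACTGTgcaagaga
Ighv4-1: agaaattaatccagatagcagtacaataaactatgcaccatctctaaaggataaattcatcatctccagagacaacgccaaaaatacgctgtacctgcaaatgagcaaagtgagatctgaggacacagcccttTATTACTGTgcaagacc
Iglv1: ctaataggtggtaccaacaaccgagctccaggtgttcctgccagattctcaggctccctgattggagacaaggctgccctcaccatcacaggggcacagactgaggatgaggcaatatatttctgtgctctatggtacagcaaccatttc
They lie on the reverse strand at chr6:69814631-69814780 (Igkv12-44), chr12:113685482-113685631 (Ighv2-5), chr12:113838526-113838675 (Ighv5-16), chr12:113948282-113948431 (Ighv4-1) and chr16:19085017-19085166 (Iglv1), and on the forward strand at chr6:70698918-70699067 (Igkv3-2). The nearest other variable gene matched Ighv2-5 at 97.7% of bases (Ighv2-4), Igkv12-44 at 95.7% (Igkv12-41), Igkv3-2 at 92.8% (Igkv3-1), Ighv5-16 at 85.8% (Ighv5-12) and Ighv4-1 at 76.2% (Ighv11-2). Iglv1 and Iglv2 matched at 96.9%. Counts of close pairs can therefore be split between copies, and the counting rule for such reads is not given in the sources used here. The first 120 coding bases of the 3 lambda constant genes are shown next, because their counts are compared below.
Iglc1: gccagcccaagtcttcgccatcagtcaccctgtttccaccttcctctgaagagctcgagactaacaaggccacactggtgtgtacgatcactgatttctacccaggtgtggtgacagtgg
Iglc2: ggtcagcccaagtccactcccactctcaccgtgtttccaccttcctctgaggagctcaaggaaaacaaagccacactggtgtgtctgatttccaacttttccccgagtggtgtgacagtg
Iglc3: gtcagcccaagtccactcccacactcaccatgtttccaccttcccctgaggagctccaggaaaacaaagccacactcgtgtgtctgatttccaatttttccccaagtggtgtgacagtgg
They lie on the reverse strand at chr16:19061952-19062071, chr16:19198734-19198853 and chr16:19065562-19065681. Over the aligned coding sequence Iglc2 and Iglc3 matched at 96.2%, and Iglc1 matched Iglc2 at 73.4%, so that Iglc2 and Iglc3 counts are the less certain pair. Ighg2b and Ighg2c matched at 87.7%.

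Plasma cells were 3.55% of all barcodes and held 79.3% of all immunoglobulin and Jchain UMIs. In library order, 50.4%, 54.1%, 54.4%, 54.4%, 53.4%, 52.6%, 52.5% and 50.8% of their UMIs came from the members. Their median depth was 5976 to 11340 UMIs, against 1354 to 1911 in B cells and 1823 to 2852 in other barcodes. The share was 52.3% ± 1.10 (SD, n = 4) after DSS and 53.3% ± 1.95 without, a difference smaller than the spread between libraries (exact permutation test, two-sided, p = 0.4, adjusted over 16 values p = 0.711). The assay reads near the 3' end of a transcript, which in these genes is the constant region. Per 100 constant UMIs, a library held 0.613 to 0.930 kappa variable and 3.59 to 12.1 lambda variable UMIs. Heavy variable UMIs stood at 1.14, 1.01, 0.997 and 0.865 without DSS and at 0.599, 0.452, 0.492 and 0.714 after it. These ratios are given with no test. The lambda ratio does not describe barcodes of lambda chains alone. By the assignment described below, 19127 Iglv1 UMIs lay in barcodes assigned to Igkc and 4386 in those assigned to Iglc1.

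IgA was the class of nearly every plasma cell. Among the 3527 plasma cell barcodes with at least 20 heavy constant UMIs of which at least 75% came from 1 gene, 3438 (97.5%, 96.1% to 98.4% over the libraries) were assigned to Igha. Another 47 were assigned to Ighg2b, 30 to Ighg2c, 7 to Ighm, 4 to Ighg1 and 1 to Ighe. None was assigned to Ighd or Ighg3. By the same rule, 3379 of 3528 barcodes (95.8%) were assigned to Igkc, the kappa constant gene, 122 to Iglc1, 18 to Iglc2, 9 to Iglc3 and none to Iglc4.

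Igha stood higher after DSS in every library. Per 10000 UMIs of plasma cells, Igha lay at 1051, 1052, 1137 and 1021 in the untreated libraries and at 1446, 1786, 1611 and 1490 in the DSS libraries. The means were 1583 ± 152 and 1065 ± 50.1 (SD, n = 4 each), and the groups did not overlap. The fitted log2 difference, averaged over both genotypes, was 0.61 with a standard error of 0.12 (edgeR quasi-likelihood test, Benjamini-Hochberg over 8681 genes, adjusted p = 0.0184). All sizes remained between 0.52 and 0.69 over 13 alternative settings, and 10 of them kept the adjusted p under 0.05. The adjusted p rose to 0.0581 without untreated WT 2, to 0.0775 without untreated S203AKI 2 and to 0.115 without DSS WT 2.

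Igkc did not pass the test. It lay at 3128, 3568, 3545 and 3582 per 10000 UMIs without DSS and at 3171, 2748, 2862 and 2825 after DSS. The lowest untreated library lay below the highest DSS library, so that the groups overlapped. The number of Igha UMIs per Igkc UMI was 0.336, 0.295, 0.321 and 0.285 without DSS and 0.456, 0.650, 0.563 and 0.527 after it. This ratio was looked at after the values were known and is given as a description with no test. Jchain overlapped between the groups, at 539, 515, 546 and 527 per 10000 UMIs without DSS and 561, 531, 542 and 522 after DSS. The J chain transcript thus stood at 0.480 to 0.516 UMIs per Igha UMI in untreated libraries and at 0.297 to 0.388 in DSS libraries.

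Among the IgG genes, Ighg2c was called higher after DSS. It lay at 2.21, 5.88, 0.199 and 1.30 per 10000 UMIs of plasma cells in the untreated libraries and at 3.87, 27.0, 21.1 and 25.1 in the DSS libraries. DSS WT 1 lay within the range of the untreated libraries, and the other 3 DSS libraries lay above it. The fitted log2 difference was 3.45 with a standard error of 0.64 (edgeR, adjusted p = 0.0142). The call was lost, at log2 2.43 and adjusted p = 0.0561, without DSS WT 2, and at 3.21 and 0.0656 when plasma cell barcodes with a T cell receptor UMI were left out. Few cells carried the counts. Assigned to Ighg2c were 1, 4, 0 and 2 barcodes in the untreated libraries and 1, 9, 7 and 6 in the DSS libraries, or 0.180%, 0.870%, 0%, 0.348%, 0.394%, 1.76%, 1.05% and 2.36% of the assigned barcodes. The exact binomial 95% interval, which covers counting error only, was 0.808% to 3.32% in DSS WT 2 and 0.00997% to 2.17% in DSS WT 1, and 0 of 246 barcodes in untreated S203AKI 1 allowed up to 1.49%. The barcode with the highest count held 94.2%, 41.5%, 20% and 81.5% of the Ighg2c UMIs of the untreated libraries and 92.0%, 18.0%, 25.0% and 38.9% of those of the DSS libraries. In DSS WT 2 and the DSS S203AKI libraries the 3 highest barcodes held 49.6%, 63.9% and 82.65%.

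The other heavy constant genes gave no call in plasma cells. Ighg2b lay at 12.9, 11.9, 19.0 and 19.9 per 10000 UMIs without DSS and at 11.4, 24.8, 21.6 and 19.8 after it. Ighg1 lay between 0.125 and 5.51, and 97.3% of its UMIs in untreated S203AKI 1 came from 1 barcode. Ighm, the class of unswitched cells, lay at 11.2 and 3.08 in untreated WT, at 14.3 in DSS WT 1, and between 0.345 and 1.03 in the other 5 libraries. In the 3 libraries above 3, a single barcode held 36.0%, 80.4% and 52.9% of the Ighm UMIs, and the 3 highest barcodes held 82.9%, 86.6% and 94.6%. Ighe, the IgE gene, reached 56 UMIs in untreated S203AKI 2, all in 1 barcode. The IgG genes together made 2.56% ± 1.02 of heavy constant UMIs after DSS and 1.84% ± 0.292 without (SD, n = 4 each, exact permutation test, two-sided, p = 0.171, adjusted p = 0.457).

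Iglc1, the main lambda constant gene, was called lower after DSS at a p just under the threshold. It lay at 209, 161, 97.9 and 228 per 10000 UMIs without DSS and at 61.1, 82.0, 124 and 123 after it, so that untreated S203AKI 1 lay among the DSS libraries. The log2 difference was -0.85 with a standard error of 0.23 (edgeR, adjusted p = 0.0494), and 4 of 13 alternatives kept the call. In DSS WT 1 a single barcode held 46.4% of the Iglc1 UMIs, and leaving out any 1 of 7 libraries, all but untreated S203AKI 1, ended the call. Iglc2 (7.89 to 34.2) and Iglc3 (1.74 to 18.6 per 10000 UMIs) were not called. The kappa genes made 96.0% ± 0.987 of light constant UMIs after DSS and 94.3% ± 1.52 without (SD, n = 4 each, exact permutation test, two-sided, p = 0.143, adjusted p = 0.457).

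**Figure D1:**
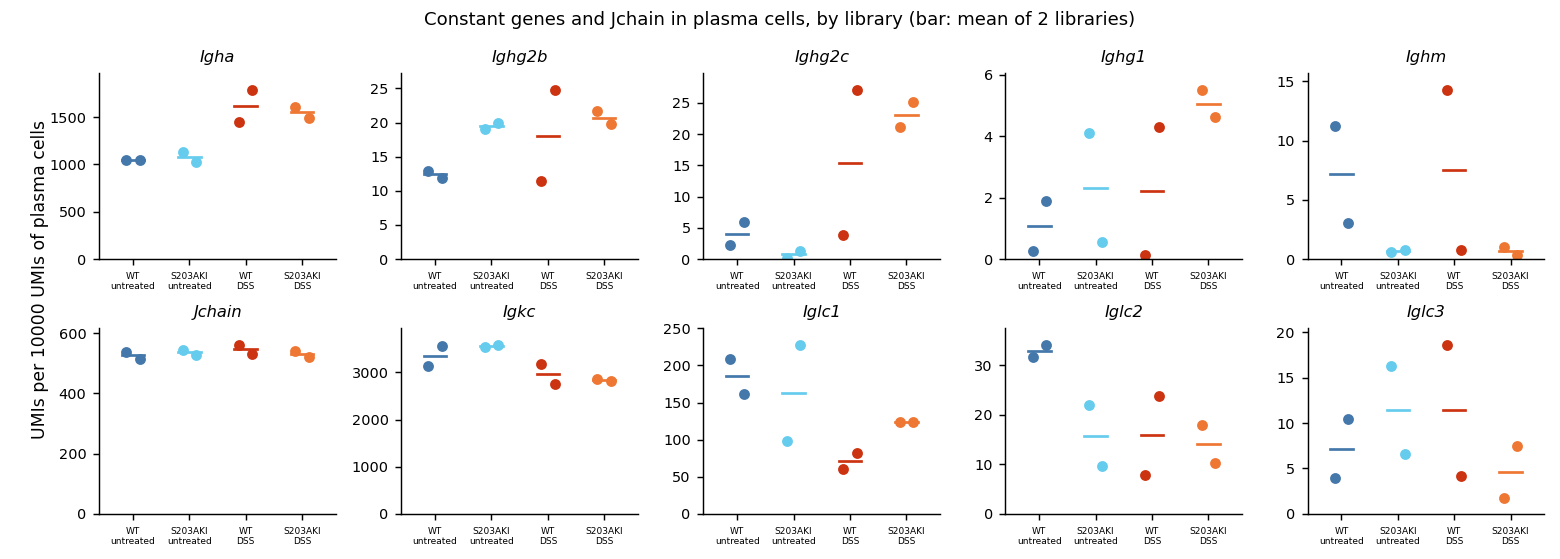
Level of heavy constant genes, Jchain and light constant genes in plasma cells (vertical axes, UMIs per 10000 UMIs of plasma cells, a separate scale for each gene). Points are the 2 libraries of each group and bars their mean. All 4 DSS libraries lie above all 4 untreated ones for Igha, while Ighg2c in DSS WT 1 (3.87) lies among the untreated libraries.

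Of the 28 listed partner genes of antibody production, 23 were tested in plasma cells, and 3 rose and 2 fell after DSS, where 3.43% of all genes were called higher and 3.69% lower. Partner genes took part in the clustering, and Edem1, Txndc5 and Tnfrsf17 are also markers by which the plasma cell cluster was named. Pou2af1, a coactivator of immunoglobulin transcription, rose by 0.72 on the log2 scale (edgeR, adjusted p = 0.0187), Edem1, which helps clear misfolded proteins, by 0.60 (adjusted p = 0.0145, edgeR), and Txndc5, a disulfide isomerase, by 0.44 (adjusted p = 0.0228, edgeR). Tnfrsf17, the receptor BCMA that supports long-lived plasma cells, lay at 2.14, 1.91, 2.06 and 2.04 per 10000 UMIs without DSS and at 1.27, 1.15, 1.16 and 0.919 after it. Every DSS library lay below every untreated library, and the log2 difference was -0.83 (edgeR, adjusted p = 0.00238). Tnfrsf13c, the BAFF receptor, fell by 0.73 (edgeR, adjusted p = 0.0222). The Tnfrsf17 call was kept under all 13 alternatives, whereas each of the other 4 was lost both without untreated WT 2 and without DSS WT 2.

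Of the heavy variable UMIs of plasma cells, 52.9% (44.5% to 63.1% over the libraries) came from the Ighv1 family, which has 93 of the 185 heavy variable genes, and 11.1% from the 22 genes of Ighv5. Of the kappa variable UMIs, 18.8% came from Igkv12 (12 of 160 kappa genes), 16.1% from Igkv1 (13 genes) and 12.8% from Igkv6 (9 genes). The stretch of each locus between its midpoint and the constant genes held 57.7% of heavy variable UMIs (51.2% to 64.5%) and 59.9% of kappa variable UMIs (49.8% to 68.8%), where 108 of 185 heavy and 88 of 160 kappa genes lie. Annotated pseudogenes took few UMIs: 16 of 70 heavy variable pseudogenes were detected with 0.315% of heavy variable UMIs, and 11 of 60 kappa pseudogenes with 0.103%.

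By UMIs, each library was led by a different heavy variable gene. In library order the top genes were Ighv5-16 (11.4% of heavy variable UMIs), Ighv9-1 (9.31%), Ighv1-76 (11.5%), Ighv1-64 (9.41%), Ighv1-19 (6.93%), Ighv10-1 (8.66%), Ighv1-55 (6.98%) and Ighv2-9-1 (9.73%). The lead could rest on 1 cell: in DSS S203AKI 2 a single barcode held 90.8% of the Ighv2-9-1 UMIs, whereas the 471 Ighv5-16 UMIs of untreated WT 1 came from 19 barcodes. Counted instead by barcodes with at least 3 heavy variable UMIs, at least 75% of them from 1 gene, fewer genes led. Ighv1-64 then led in untreated S203AKI 2 (26 barcodes), DSS S203AKI 1 (26) and DSS S203AKI 2 (14), and Ighv1-76 in untreated S203AKI 1 (14) and, level with Ighv1-9, in untreated WT 1 (21).

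Among kappa genes, again by UMIs, Igkv12-44 led in 6 of the 8 libraries with 7.19% to 18.3% of kappa variable UMIs. Igkv1-135 led in untreated WT 2 with 11.8%, and Igkv6-20 in DSS S203AKI 2 with 16.5%, 75.7% of it from 1 barcode. By barcodes assigned in the same way to a kappa gene, Igkv12-44 led in 3 libraries, untreated WT 1 (27), untreated S203AKI 1 (19) and untreated S203AKI 2 (20). Igkv10-96 led in untreated WT 2 (23), in DSS S203AKI 2 (8) and, level with Igkv5-48, in DSS WT 2 (19), and Igkv1-117 led in DSS WT 1 (13) and DSS S203AKI 1 (23). The effective number of genes in use, 1 over the sum of the squared shares, was 23.4 to 34.6 for heavy and 15.7 to 28.9 for kappa variable genes.

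**Figure D2:**
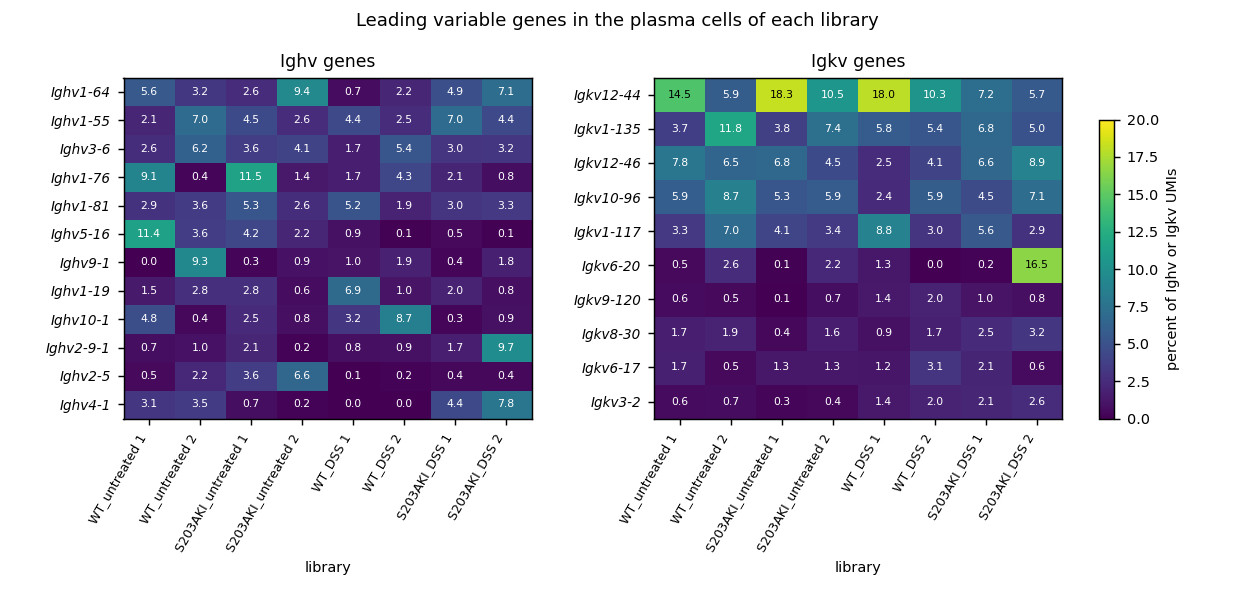
Share of heavy variable (left) and kappa variable (right) UMIs of plasma cells taken by named genes (rows) in each library (columns, with DSS libraries on the right of each panel), in percent, printed in each cell. By these UMI shares Igkv12-44 leads in 6 libraries (7.19% to 18.3%), while the leading heavy gene changes from library to library.

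Pairs of heavy and light variable genes within 1 barcode were diverse. Where at least 3 UMIs and at least 75% of a barcode's variable UMIs of a chain came from 1 gene, both chains could be assigned in 69 to 251 barcodes per library, with 59 to 146 different pairs. The most frequent pair took 3.17% to 8.93% of these barcodes. The highest share was Ighv1-76 with Igkv5-48 in untreated S203AKI 1, at 10 of 112 barcodes. Barcodes that share a pair may descend from 1 B cell and are not independent.

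Light chains matched in most barcodes. A kappa variable gene was never paired with a lambda constant gene (0 barcodes, against 1748 that joined it to Igkc), and 128 barcodes joined a lambda variable to a lambda constant gene, 115 of them Iglv1 to Iglc1. A further 72 barcodes were assigned a lambda variable gene and Igkc, so that 96.3% of assigned barcodes had both genes from 1 kind of light chain. Iglv1 had at least 1 UMI in 68.8% of the 3379 barcodes assigned to Igkc, with a median of 2 UMIs, and in 99.2% of the 122 assigned to Iglc1, with a median of 31.

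After DSS, averaged over genotypes, 14 of the 167 tested members were called in plasma cells (8.38%), against 7.12% of all 8681 genes tested. The 2 shares were close. To be tested, a gene needed the equivalent of 10 UMIs at the median library size in at least 2 libraries. Of the 167 members, 127 met this in the untreated and in the DSS libraries alike, 13 in the untreated libraries alone, 16 in the DSS libraries alone and 11 only over both together. Of those that met it on 1 side alone, 1 of the 13 and 2 of the 16 were called. Of the 14, 6 were higher and 8 lower, where 3.43% of all genes were higher and 3.69% lower. The median log2 difference was -0.22 over the members and 0.01 over all genes, and 45 of 167 members had an unadjusted p under 0.05, against 2262 of 8681 genes. In 12 of 167 members (7.19%) the DSS and untreated libraries did not overlap, against 17.4% of all genes.

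The higher members were Igha, Ighg2c and 4 variable genes. Igkv3-2 lay at 0.167, 0.181, 0.0709 and 0.103 per 10000 UMIs without DSS and at 0.293, 0.332, 0.394 and 0.637 after it. Every DSS library lay above every untreated one, and the UMIs came from 12 to 28 barcodes per DSS library and 9 to 18 per untreated library. Few of these held most of them: the 3 barcodes with the highest counts held 77.8%, 64.0%, 47.6% and 72.4% in the DSS libraries and 56.6% to 71.2% in the untreated ones. Barcodes with at least 3 Igkv3-2 UMIs numbered 2, 6, 11 and 7 after DSS and 6, 3, 3 and 5 without. The log2 difference was 1.71 with a standard error of 0.20 (edgeR, adjusted p = 0.00238), and all 13 alternatives kept the call. Ighv5-6 lay at 0.0747, 0.00274, 0.0975 and 0.175 without DSS and at 0.255, 0.251, 0.188 and 0.197 after it, with no overlap, and rose by 1.61 on the log2 scale (edgeR, adjusted p = 0.0369). Ighv5-6 UMIs sat in 9, 11, 13 and 5 barcodes after DSS and in 6, 1, 6 and 15 without. In DSS S203AKI 2 a single barcode held 44 of the 56 UMIs (78.6%), so that the lack of overlap leans on that barcode. The Ighv5-6 call was kept by 6 of 13 alternatives and lost without any 1 of the 4 DSS libraries or either untreated S203AKI library. Ighv2-6 and Ighv1-5 met the count minimum in DSS libraries alone and are given as counts, with no test. Ighv2-6 had 2, 4, 0 and 0 UMIs without DSS and 12, 6, 17 and 30 after it, the latter from 2, 1, 1 and 2 barcodes. Ighv1-5 had 0 UMIs in each untreated library and 1, 9, 16 and 11 in the DSS libraries, from 1 or 2 barcodes each.

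The lower members were Iglc1 and 7 variable genes. Ighv2-5 lay at 0.0598, 0.241, 0.417 and 0.596 per 10000 UMIs without DSS and at 0.00542, 0.0180, 0.0356 and 0.0458 after it. Its log2 difference was -3.54 with a standard error of 0.46 (edgeR, adjusted p = 0.00336). Ighv5-16 lay at 1.41, 0.391, 0.492 and 0.195 without DSS and at 0.0813, 0.0120, 0.0428 and 0.0106 after it, a log2 difference of -3.96 with a standard error of 0.58 (edgeR, adjusted p = 0.00499). For both genes every DSS library lay below every untreated library, and all 13 alternatives kept the call. The counts came from few barcodes: Ighv5-16 UMIs were found in 19, 12, 5 and 9 barcodes of the untreated libraries and in 2, 1, 2 and 1 of the DSS libraries, and Ighv2-5 UMIs in 2, 5, 7 and 6 against 1, 1, 2 and 2. In the other barcodes, where neither was called, Ighv5-16 had 108 UMIs without DSS and 11 after it. There Ighv2-5 went the other way, with 5 and 110. Ighv7-3 fell by 2.42 (edgeR, adjusted p = 0.0145) and Igkv4-57 by 1.44 (edgeR, adjusted p = 0.00651), and neither overlapped between the groups. Ighv7-3 lay at 0.293, 0.211, 0.324 and 0.177 without DSS and at 0.0271, 0.0718, 0.0641 and 0 after it. Igkv4-57 lay at 0.185, 0.208, 0.279 and 0.165 without DSS and at 0.103, 0.0748, 0.0523 and 0.0774 after it. These counts too came from few barcodes. Ighv7-3 UMIs were found in 8, 4, 5 and 9 barcodes without DSS and in 1, 2, 2 and 0 after it. Igkv4-57 UMIs were found in 5, 7, 3 and 7 against 2, 3, 4 and 1.

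The groups overlapped for both other calls. Ighv1-80 lay at 0.191, 0.134, 0.151 and 0.0954 per 10000 UMIs without DSS and at 0.146, 0.0808, 0 and 0.0246 after it. DSS WT 1 lay within the untreated range, and the S203AKI libraries were the lowest after DSS. The averaged log2 difference was -2.005 (edgeR, adjusted p = 0.0240), that within WT -0.50 (edgeR, adjusted p = 0.665), and the interaction did not pass (edgeR, adjusted p = 1). Igkv4-91 lay at 0.0867, 0.479, 0.457 and 0.144 without DSS and at 0.0542, 0.0688, 0.0713 and 0.0915 after it, and fell by 1.96 (edgeR, adjusted p = 0.0496). Leaving out DSS WT 2 ended the calls of Ighv7-3, Igkv4-57, Ighv1-80 and Igkv4-91. The Ighv1-80 call was also lost without any 1 of the untreated libraries, and the Igkv4-91 call without any 1 library other than untreated WT 1 and untreated S203AKI 2. Ighv5-15 met the count minimum in untreated libraries alone and is given as counts, with no test: 9, 16, 12 and 8 UMIs from 3, 3, 1 and 2 barcodes without DSS, and 0, 0, 2 and 0 after it. Over all members, 5 of 179 (2.79%) were called without DSS WT 2, against 0.951% of all genes, and 20 of 179 (11.2%) without DSS S203AKI 2, against 4.19%. Ighv5-6, Ighv1-80 and Igkv4-91 fell outside the rule for named genes and were named after their values were seen.

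The contrast within WT mice, which the study design names, called 1 member, Ighv4-1, out of 167 (0.599%), against 0.0806% of all genes. The UMIs of Ighv4-1 in plasma cells numbered 129 and 139 in untreated WT, 19 and 10 in untreated S203AKI, 0 and 0 in DSS WT, and 152 and 245 in DSS S203AKI. Per 10000 UMIs these were 0.386, 0.380, 0.0842, 0.0195, 0, 0, 0.361 and 0.862. With 3 counts in all put in place of 0 for DSS WT, the ratio of untreated WT to DSS WT was 66.2 (contrast within WT, edgeR, adjusted p = 0.0327). In the mutants the DSS libraries held 14.4 times the untreated level. The difference between these 2 DSS effects was tested as an interaction and was the 1 call of that test, among members (0.599%) and among all genes alike (0.0115%; edgeR, adjusted p = 0.0151). After DSS, the same replacement gave a ratio of mutants to WT of 97.4, and that contrast did not pass (edgeR, adjusted p = 0.0664). UMIs of the same cell are not independent, so the ratios of 66.2 and 97.4 are no lower bounds. The UMIs sat in 6, 10, 2, 1, 0, 0, 8 and 4 plasma cells, and in DSS S203AKI 2 a single one held 53.1% of them. The WT call was lost without any 1 of the 4 WT libraries (adjusted p = 0.0732, 0.119, 0.0854 and 0.302 by edgeR), and the interaction call without DSS WT 1 (0.0555). Leaving out barcodes with a T cell receptor UMI ended both, at 0.0631 and 0.0608.

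**Figure D3:**
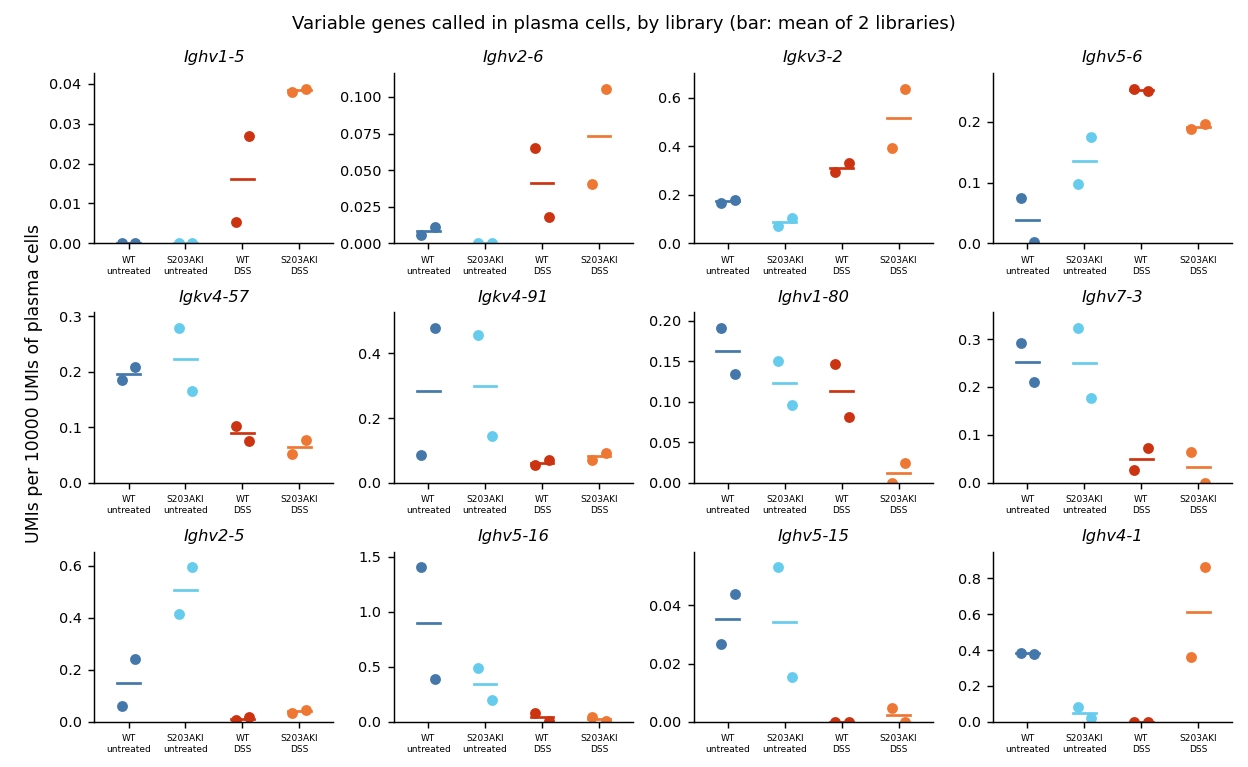
Level of the variable genes called after DSS averaged over genotypes, and of Ighv4-1, in plasma cells (vertical axes, UMIs per 10000 UMIs of plasma cells, a separate scale for each gene). Points are the 2 libraries of each group and bars their mean. Ighv4-1 is at 0 in both DSS WT libraries and highest in DSS S203AKI 2 (0.862).

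Mutant and WT mice gave no called member in plasma cells, either untreated or after DSS, where 0% of all genes were called. Unadjusted p-values under 0.05 numbered 43 of 167 members untreated and 40 after DSS, against 325 and 272 of all 8681 genes, and DESeq2 called 2 and 1 members, where it called 2 genes in all in each contrast. With no count filter edgeR called 79 and 69 of 240 members (32.9% and 28.8%), against 0.692% and 0.504% of the 16474 genes with a UMI. That setting also tested members below the count minimum, whose UMIs can come from few cells. The filter had passed 167 of the 240, so that some of the 79 calls fell on members that had passed it. What raised the number of calls was not tested. The 79 and 69 calls are not read as genotype differences. Under the filter, members with an unadjusted p under 0.05 also numbered 45 for DSS averaged, 46 for DSS in WT and 43 for the interaction (edgeR). Plasma cells made 3.52% ± 1.42 of barcodes in mutants and 3.44% ± 0.792 in WT (SD, n = 4 each, exact permutation test, two-sided, p = 0.914, adjusted p = 0.971).

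B cells held few immunoglobulin UMIs by comparison, 0.683% to 1.29% of their total, and no variable gene passed the count filter there. Ighm lay between 7.38 and 13.2 per 10000 UMIs and Ighd between 1.76 and 3.94, whereas in plasma cells Ighd did not exceed 0.0156. Igkc lay between 34.5 and 59.3. Of the variable UMIs in B cells, 309 were heavy and 439 kappa over all libraries, and 56.3% of the heavy ones came from the Ighv1 family.

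In B cells 3 of the 11 tested members (27.3%) were called higher after DSS averaged over genotypes, against 16% of all genes called and 6.83% called higher. Igha lay at 17.0, 11.7, 10.8 and 9.92 per 10000 UMIs without DSS and at 8.34, 21.2, 33.1 and 28.2 after it. DSS WT 1 was the lowest of all 8 libraries, and the other DSS libraries lay above all untreated ones. The log2 difference was 0.68 with a standard error of 0.17 (edgeR, adjusted p = 0.00717), and Ighg2b (0.77, adjusted p = 0.0243, edgeR) and Jchain (0.68, adjusted p = 0.0420, edgeR) were also called. DESeq2 called none of them, and without DSS WT 2 the values were 0.29 for Igha, 0.05 for Ighg2b and 0.37 for Jchain, none of them called. The Igha call was also lost without untreated WT 2, the Ighg2b call without DSS S203AKI 1 or any 1 of untreated WT 1, untreated WT 2 and untreated S203AKI 1, and the Jchain call without DSS S203AKI 1, untreated WT 2 or untreated S203AKI 1. In T cells with at most 5% immunoglobulin, Igha lay at 7.07, 3.41, 2.54 and 5.61 without DSS and at 4.86, 16.8, 17.9 and 2.43 after it. DSS WT 2 and DSS S203AKI 1 lay above the untreated T cell values, DSS WT 1 lay among them, and DSS S203AKI 2 lay below them, with 28.2 in its B cells. The part of free RNA in the B cell values was not tested.

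Within WT mice 1 B cell member was called, Iglc1, lower by 1.67 on the log2 scale (edgeR, adjusted p = 0.0256), where 1.25% of all genes were called. It lay at 3.54 and 4.66 per 10000 UMIs without DSS and at 0.727 and 1.97 after it. Iglc1 in T cells with at most 5% immunoglobulin, from the same libraries, lay at 1.48, 0.307, 0.111 and 0.692. The part of free RNA in the B cell Iglc1 values was not tested. The call was lost without untreated WT 2, the library with the highest value, and without DSS WT 1, the library with the lowest. No member was called in B cells between mutants and WT, untreated (0.274% of all genes called) or after DSS (0%), nor by the interaction (0.115%). At an unadjusted p under 0.05 each of these edgeR tests had 3 of 11 members, against 482, 224 and 343 of 6937 genes, and DESeq2 called 0 in each.

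Of 22 partner genes tested in B cells, 3 rose and 5 fell after DSS, where 16% of all genes were called. Pax5, Fcer2a and Cd79a are also markers by which the B cell cluster was named. Pou2af1 rose by 0.65 and Pax5, which holds B cell identity, by 0.57, and Edem1 rose by 0.74. Fcer2a, the low-affinity IgE receptor CD23, fell by 0.95 from 0.907, 1.09, 1.93 and 1.54 per 10000 UMIs to 0.920, 0.791, 0.722 and 0.463 (edgeR, adjusted p = 0.000245). Mzb1, Ssr4 and Sec11c, of the secretory pathway, and Cd79a, of the B cell receptor, fell by 0.55, 0.50, 0.44 and 0.34. The Pou2af1, Fcer2a and Mzb1 calls were kept under all 13 alternatives, while those of Edem1, Pax5, Ssr4 and Cd79a were lost without DSS WT 2 and that of Sec11c without untreated WT 2.

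Outside plasma cells and B cells, immunoglobulin UMIs were nearly everywhere. Between 83.2% and 99.9% of the other barcodes of a library held at least 1, and together these barcodes held 16.5% of all immunoglobulin UMIs. The share of their UMIs was 0.777%, 0.824%, 0.492% and 0.647% without DSS and 0.467%, 1.68%, 1.25% and 1.39% after it. The means were 1.20% ± 0.519 and 0.685% ± 0.149 (SD, n = 4 each), a difference that did not exceed the spread (exact permutation test, two-sided, p = 0.143, adjusted p = 0.457). In the median barcode the share was 0.184%, 0.0907%, 0.0686%, 0.159%, 0.155%, 0.403%, 0.517% and 0.0562%. T cells, which do not make antibody, had medians of 0.0604% to 0.556% at 1636 to 2386 UMIs per barcode. Fibroblasts, which do not either, had medians of 0.0364% to 0.201% at 4071 to 7934 UMIs. Whether these UMIs came from free RNA or from the cells themselves was not tested.

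A small set of barcodes held most of these UMIs. Over 5% immunoglobulin was found in 842 other barcodes, 0.443% to 1.29% of a library, and they held 68% to 95.7% of the immunoglobulin UMIs of the other barcodes. They were deeper, with a median of 8524 UMIs against 2244 in the rest, and their median share was 26.9%. Markers of plasma cells stood high in them: leaving out immunoglobulin UMIs, Mzb1 lay at 1405 CPM against 8.29 in the rest and 4345 in plasma cells, Tnfrsf17 at 94.5 against 0.499 and 342, and Derl3, of the endoplasmic reticulum, at 189 against 2.19 and 499. The barcodes sat in clusters of several cell types, with 325 of 10243 fibroblast-like barcodes, 305 of 12426 macrophage- or monocyte-like barcodes, 30 of 702 columnar epithelial-like barcodes and 59 of 41723 T cell-like barcodes. The part of doublets in this set was not tested. Without these barcodes the share in the other barcodes of a library was 0.0616% to 0.413%.

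The fibroblast-like barcodes over 5% stood at a higher share after DSS. They were 1.07%, 1.75%, 0.812% and 1.60% of fibroblast-like barcodes without DSS and 6.17%, 7.60%, 4.85% and 8.79% after it. Every DSS library lay above every untreated library, a comparison looked at after the values were known and given with no test. The Igha level of all fibroblast-like barcodes was 19.2, 28.5, 15.8 and 22.2 per 10000 UMIs without DSS and 66.3, 139.8, 85.0 and 145 after it. One fibroblast cluster held 256 of these barcodes among its 2164 (11.8%), against 0.275% to 2.29% in the other fibroblast clusters. The part of fibroblast cluster make-up in the higher share after DSS was not tested. Library by library, DSS WT 1 had 243 fibroblast-like barcodes and the others 949 to 2116.

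**Figure D4:**
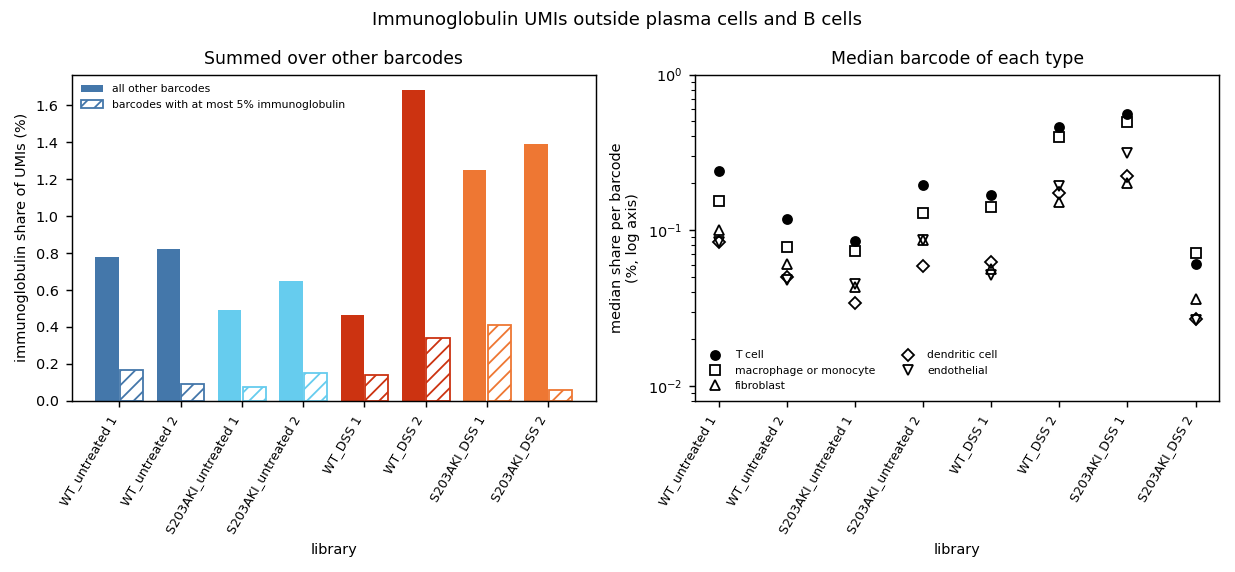
Immunoglobulin share of UMIs outside plasma cells and B cells, by library. Bars give the share in all other barcodes and in those with at most 5% immunoglobulin (percent, from 0), and points give the median share of the barcodes of each cell type (percent, log axis). The share falls from 0.467% to 1.68% over all other barcodes to 0.0616% to 0.413% without the 842 barcodes over 5%.

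After DSS averaged over genotypes, 7 of the 86 tested members were called in the other barcodes, all higher (8.14%), against 26.8% of all genes called and 13.6% called higher. Igha lay at 22.5, 19.0, 12.0 and 15.3 per 10000 UMIs without DSS and at 14.4, 53.7, 41.9 and 42.4 after it. DSS WT 1 lay among the untreated libraries, and the log2 difference was 1.19 with a standard error of 0.36 (edgeR, adjusted p = 0.0470). Iglc3 rose by 2.45 (edgeR, adjusted p = 0.0216), with 4761 of its UMIs in DSS S203AKI 2 and 124 to 1021 in the other 7 libraries. Igkv8-30 rose by 1.67 (edgeR, adjusted p = 0.0389). The other 4 called members met the count minimum in DSS libraries alone, as did 20 of the 86 tested, and are given as counts, with no test. Igkv2-109 had 3, 1, 1 and 1 UMIs in the untreated libraries and 23, 13, 18 and 49 in the DSS libraries. Igkv3-2 had 4, 7, 1 and 7 UMIs without DSS and 18, 23, 40 and 15 after it. Both genes passed through the DSS libraries alone, so that their lack of overlap between the groups is no support. Igkv6-17 had 0, 9, 0 and 3 UMIs without DSS and 9, 49, 34 and 14 after it. Igkv9-120 had 4, 2, 0 and 0 UMIs without DSS and 2, 46, 186 and 65 after it, so that DSS WT 1 lay among the untreated libraries. Without the barcodes over 5% immunoglobulin no member was called by edgeR. There Igha stood at 1.30 on the log2 scale (edgeR, adjusted p = 0.155) and Iglc3 at -0.07. Leaving out 1 library gave between 1 call, without untreated WT 1 (of 118 members, with 15.6% of all genes called) or without untreated WT 2 (of 116, with 3.3%), and 16 of 123, without DSS WT 1 (22.1% of all genes). The Igha call was lost without any 1 library other than the 2 of DSS WT.

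Within WT mice no member was called in the other barcodes (1.23% of all genes called by edgeR), and 12 of 86 members had an unadjusted p under 0.05, against 3986 of 16353 genes. Between mutants and WT no member was called either, untreated or after DSS, nor by the interaction, and 0% of all genes were. At an unadjusted p under 0.05 edgeR had 11, 8 and 14 of 86 members in these 3 tests, against 499, 177 and 187 of 16353 genes, and DESeq2 called 1 in each.

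Variable genes in the other barcodes resembled those of plasma cells of the same and of other libraries. Each library's 230 variable gene shares in the other barcodes (19279 UMIs) were correlated with those in the plasma cells of all 8 libraries, as a description across genes, which are not independent and share Iglv1 as a leading gene. Pearson's r with the own library was 0.713 to 0.976, and with another library 0.318 to 0.966. The own library gave the highest r for 4 of the 8 libraries, for 7 on square roots of the shares, and for 6 with barcodes of at most 5% immunoglobulin (3364 UMIs). In the T cell barcodes of the authors' list, with 540 variable UMIs, r with the own library was 0.269 to 0.966 and with another library 0.186 to 0.941, and the own library was highest for 6. The lowest own value was that of DSS S203AKI 2, with 22 UMIs. Between plasma cells of different libraries r was 0.777 to 0.966, with a median of 0.905 over 28 pairs.

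**Figure D5:**
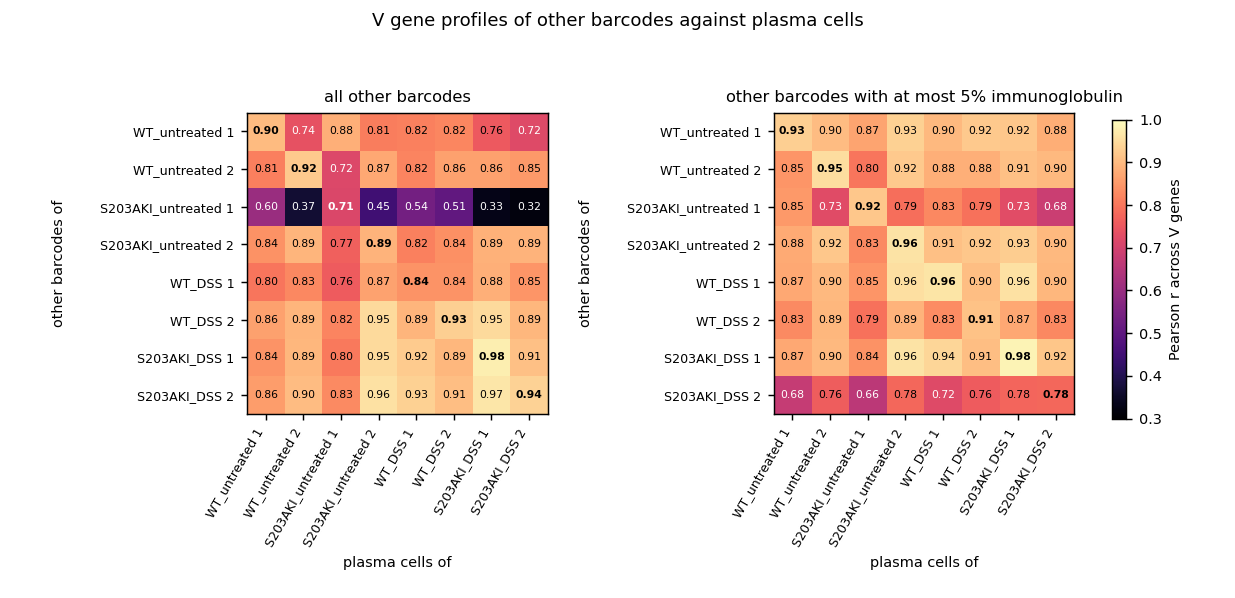
Pearson's r across variable genes between the other barcodes of each library (rows) and the plasma cells of each library (columns), for all other barcodes (left) and for those with at most 5% immunoglobulin (right). The own library, on the diagonal, is highest in 4 of 8 rows on the left and in 6 of 8 on the right.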

How the data were processed

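Cells of the colonic lamina propria from 8 mouse libraries were measured by 3' droplet RNA sequencing. The authors deposited UMI counts per gene and barcode, and the submitters' processing notes name mm10, Cell Ranger 3.1.0 and Seurat 4.0.1. Rows without names were matched to the deposited gene list by order. Of 30934 identifiers in reference names, 98.5% carried the listed symbol. Barcodes were clustered with scanpy 1.11.5 and leidenalg 0.10.2 (2000 variable genes, 40 components, 15 neighbours, resolution 1). Left out were immunoglobulin genes, Jchain, mitochondrial, haemoglobin and sex genes, and the variable, diversity and joining segments of T cell receptors. T cell receptor constant genes were not left out. Clusters were named from fixed marker lists (at least 3 markers at 5 CPM). A mixed B and plasma cell cluster and other clusters without a clear name stayed unnamed. UMIs were summed per library and population, and edgeR 4.0.16 quasi-likelihood tests used all 8 libraries and 4 groups, with Benjamini-Hochberg adjustment over all genes and a threshold of 0.05. The averaged DSS contrast takes the mean of both genotypes' DSS effects. A standard error given with a log2 difference is its absolute value over the square root of the test's F statistic. Single values were tested by exact permutation, two-sided, adjusted over all of them (smallest p with 4 against 4 libraries 0.0286, with 2 against 2 libraries 0.333). Simulated counts for DSS in WT recovered 39% of genes changed by 1 on the log2 scale and 81% of those changed by 2 in plasma cells (8681 genes). Intervals cover counting error only.

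Named genes were all constant genes and Jchain, the leading variable genes, up to 10 called members per contrast and listed partner genes. The members and lists were chosen with earlier results of these data known. Alternatives were DESeq2 1.42.0, no count filter, library sizes without immunoglobulin, barcodes without a T cell receptor UMI, resolution 2, only the libraries compared, listed T cells, and each library left out. Those with at most 5% immunoglobulin, and resolution 2 for member counts, were chosen after seeing the data.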

Additional observations from a re-analysis of the deposited data

Results flagged for a closer look

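Ighv4-1 in plasma cells had DSS effects that differed between genotypes, with an interaction of 13.79 on the log2 scale (edgeR, adjusted p = 0.0151). It was at 0 UMIs in both DSS WT libraries, so that the fitted size depends on the prior count and is no bound. The counts were 129 and 139 UMIs in untreated WT, 19 and 10 in untreated S203AKI, and 152 and 245 in DSS S203AKI, from 1 to 10 plasma cells per library.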

How the results depend on the processing

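A library's count of a single variable gene often came from a few plasma cells, and each group held 2 libraries. No paired analysis was run, because the labels give the groups no shared replicate numbers. Counting each gene under each alternative, 367 kept their call under an alternative, 141 lost it and 1 reversed, Iglc3 in other barcodes with at most 5% immunoglobulin (-0.0685 on the log2 scale). Each cause was not tested.

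Counts of called members are given in the order DSS in WT, DSS averaged, mutant untreated, mutant after DSS and interaction. In plasma cells DESeq2 gave 2, 5, 2, 1 and 4 of 240 members (0.833%, 2.08%, 0.833%, 0.417% and 1.67%), against 0.297%, 1.44%, 0.0121%, 0.0121% and 0.0243% of all genes. No count filter gave 86, 102, 79, 69 and 73 of 240 (35.8%, 42.5%, 32.9%, 28.8% and 30.4%), against 2.18%, 7.14%, 0.692%, 0.504% and 0.571% of all genes. This setting also tested members below the count minimum. The filter had passed 167 of the 240, so that some of the 86, 102 and 79 calls fell on members that had passed it. Without barcodes holding a T cell receptor UMI, DSS in WT and the interaction gave 0 each (0.213% and 0% of all genes), and with only the libraries compared DSS in WT gave 3 and mutant untreated 2 (0.17% and 0.0363%). In B cells DESeq2 gave 0 for DSS in WT and 0 averaged (0.382% and 2.64% of all genes), and no count filter gave 2, 5, 3, 2 and 2 (1.09%, 6.92%, 0.375%, 0.0382% and 0.127%). Without barcodes holding a T cell receptor UMI, mutant untreated and the interaction gave 2 each in B cells (0.508% and 0.159%), and with only the libraries compared mutant untreated gave 1 (0.542%). In other barcodes DESeq2 gave 7, 16, 1, 1 and 1 (6.26%, 19.5%, 0.0634%, 0.0127% and 0.0211% of all genes), and no count filter gave 4 for DSS in WT and 14 averaged (4.19% and 19%). Listed T cells gave 1 for DSS in WT and 1 averaged (0.881% and 19.1%), barcodes of at most 5% immunoglobulin gave 0 averaged (28.2%), and only the libraries compared gave 2 for DSS in WT and 1 for mutant untreated (1.08% and 0.00633%). The variable gene profile was highest with the own library in 7 libraries on square roots.

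Leaving out 1 library at a time gave, in plasma cells, 0 to 4, 5 to 20, 0 to 2, 0 to 2 and 0 to 4 calls. The same fits called 0.0219% to 0.317%, 0.951% to 5.99%, 0% to 0.0327%, 0% to 0.0437% and 0% to 0.0546% of all genes. In B cells it gave 0 to 1, 0 to 6, 0 to 1, 0 to 1 and 0 to 2, where 0.0913% to 1.65%, 4.69% to 14.5%, 0.0514% to 0.361%, 0% to 0.0139% and 0% to 0.156% of all genes were called. In other barcodes it gave 0 to 3 for DSS in WT and 1 to 16 averaged, where 0% to 6.88% and 3.3% to 26.1% were called. The mutant minus WT difference ranged from -0.474 to 0.503 percentage points for the plasma cell share, from -0.368 to 1.12 for the immunoglobulin share of plasma cells, from -0.149 to 0.255 for that of other barcodes, from -0.411 to 0.0276 for the Igha share and from -0.903 to 0.621 for the kappa share. The DSS minus untreated difference of the Ighm share ranged from -0.320 to 0.136. That difference was 0.0384 without barcodes holding a T cell receptor UMI. The mutant minus WT difference of the immunoglobulin share of other barcodes was -0.00102 at resolution 2 and -0.00893 with at most 5% immunoglobulin. None of these shares passed its test under the main setting.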

Other observations

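Plasmacytoid dendritic cell-like barcodes, 143 in all, held Ighm at 4.83 to 10.1 per 10000 UMIs over the libraries and Iglc3 at 1.55 to 7.27. T cells with at most 5% immunoglobulin held Ighm at 0.435 to 1.20 and Iglc3 at 0.00536 to 0.0322. These libraries had 10 to 32 such dendritic barcodes each.

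In barcodes with at most 5% immunoglobulin outside plasma cells and B cells, Igha stood at 0.533 to 0.931 UMIs per Igkc UMI, above the ratio of the plasma cells of the same library in all 8 libraries. In such T cells, Iglc1 made 13.2%, 5.03%, 5.36% and 7.41% of light constant UMIs in the untreated libraries and 1.54%, 3.65%, 7.94% and 4.12% in the DSS libraries. In plasma cells of the same libraries the shares were 6.20%, 4.28%, 2.66% and 5.95%, and 1.87%, 2.87%, 4.13% and 4.16%. The T cell share was the higher one except in DSS WT 1 and DSS S203AKI 2.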
